A study of Rattus norvegicus with 6 samples.

Results

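Vascular and blood–brain barrier (BBB) genes were examined in the methylome of hippocampal endothelial cells from stressed and unstressed rats. The set comprised 60 genes, chosen for their roles in vascular growth signalling, Notch signalling, barrier formation, transport, adhesion and endothelial transcription. Differentially methylated regions (DMRs) of the deposited annotation whose gene name was a member of this set were taken, and each was counted once by its chromosome, start, end and sequence context. This gave 47 regions in 26 genes, out of 24862 annotated regions and 12262 regions annotated to any gene. The other 34 genes carried no listed region.

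The CUMS group comprised 3 samples from rats that went through chronic unpredictable mild stress over 8 weeks, with changing stressors such as restraint, food and water deprivation, cage tilt, wet bedding, cold swimming and continuous light. The Ctrl group comprised 3 samples from rats left in their home cages. Saline gavage is described for groups of the same study, and whether these rats received it is not given in the sources used here. Per the study's methods the rats were adult male Sprague-Dawley animals. Cells were dissociated from the hippocampus and sorted as CD45-/CD31+, and the tables used here hold no RNA values, so the identity of the cells rests on the sort and was not checked against marker expression. The sources used here do not say whether a sample is a single rat.

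The tables give a single methylation level for each group and region, in which the authors combined the 3 samples. The levels below therefore carry no replicate error, the tables do not give the read depth of a region, and how a difference compares with the variation among rats was not tested. All listed regions had been picked by the authors because the groups differed there, so the size of a difference in them is a description. Hypermethylated denotes a region with the higher level in CUMS, and hypomethylated a region with the higher level in Ctrl.

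The endothelium of brain vessels is shaped by a few signalling systems. Vascular endothelial growth factor (VEGF) acts through receptor tyrosine kinases and drives sprouting, the angiopoietins act through Tie receptors and set vessel stability, Notch receptors respond to membrane-bound ligands on neighbouring cells and control arterial identity and sprouting, and canonical Wnt signalling induces and maintains barrier properties. In most tissues, CpG islands at gene starts carry little methylation, whereas CG sites in gene bodies are mostly methylated, and methylation of cytosines followed by other bases (CHG and CHH, where H stands for A, C or T) is low outside neurons.

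Upstream sequences are given first for 4 genes whose CG regions were annotated to a promoter, transcription start site (TSS) or 5′ untranslated region (UTR). They are the 250 bases before the RefSeq gene start, in the orientation of the gene, from assembly GRCr8. They were read from another assembly than the regions (mRatBN7.2), so they show the kind of sequence at these starts, and the place of a region within them was not determined. CG dinucleotides, where CG methylation can occur, are in capitals. The sequence of Notch3 (chr7:11834586-11834835, minus strand) holds 19 CG, that of Hes1 (chr11:84213046-84213295, minus strand) 18, that of Pdgfb (chr7:113438344-113438593, minus strand) 19, and that of Vegfa (chr9:22452604-22452853, plus strand) 12.
Notch3: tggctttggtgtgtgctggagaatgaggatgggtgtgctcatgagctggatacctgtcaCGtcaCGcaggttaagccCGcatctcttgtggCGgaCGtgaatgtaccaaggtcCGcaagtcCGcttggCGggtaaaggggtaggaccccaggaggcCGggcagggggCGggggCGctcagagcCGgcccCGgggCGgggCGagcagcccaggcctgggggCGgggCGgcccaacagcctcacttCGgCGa
Hes1: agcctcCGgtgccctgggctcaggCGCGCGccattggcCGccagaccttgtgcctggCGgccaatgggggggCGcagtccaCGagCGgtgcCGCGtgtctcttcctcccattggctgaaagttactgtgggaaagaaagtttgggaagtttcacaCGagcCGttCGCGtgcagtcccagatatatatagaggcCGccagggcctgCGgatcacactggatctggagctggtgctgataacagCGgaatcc
Pdgfb: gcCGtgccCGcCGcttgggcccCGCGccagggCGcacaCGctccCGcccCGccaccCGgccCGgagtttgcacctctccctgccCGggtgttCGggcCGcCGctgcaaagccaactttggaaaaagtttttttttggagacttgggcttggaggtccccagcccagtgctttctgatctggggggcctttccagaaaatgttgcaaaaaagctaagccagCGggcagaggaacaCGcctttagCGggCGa
Vegfa: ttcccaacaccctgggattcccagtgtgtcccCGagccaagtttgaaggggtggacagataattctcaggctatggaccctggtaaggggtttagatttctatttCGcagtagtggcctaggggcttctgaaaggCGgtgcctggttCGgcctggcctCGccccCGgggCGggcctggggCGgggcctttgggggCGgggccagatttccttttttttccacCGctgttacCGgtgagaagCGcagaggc

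Upstream windows of this kind were on hand for 41 of the 60 genes, in 44 windows. Their median content was 14 CG, compared with 5 CG over all 33469 windows of the table. These outnumber the 20978 named protein-coding genes of RefSeq and may include other kinds of gene. The part of this in the comparisons with all windows was not tested. The windows of genes with a hypermethylated CG region had a median of 10.5 CG (12 windows), and those of genes with no CG region had a median of 17 (30 windows). The former hold a pair of windows of Vegfa. They also hold windows of Flt4, Heyl, Lrp1, Notch4 and Plvap, whose CG regions were not annotated to a promoter, TSS or 5′ UTR. Adgra2, Hey1 and Lrp5 had no window. The medians therefore do not show how rich in CG the gene starts with a hypermethylated region were. The letters GGGCGG, the core of a binding site of the factor SP1, which contain a CG themselves, were found on either strand in 25 of 44 windows (56.8%) and in 30.5% of all windows. The letters GTGGGAA, the core of the site bound by RBPJ, the DNA-binding partner of Notch, were found on either strand in 5 windows (11.4%), those of Hey2, Dll1, Tie1, Hes1 and Kdr, and in 5.27% of all windows.

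To describe the direction of the differences, the regions were counted by context. Of the 47 regions, 36 were hypermethylated and 11 hypomethylated, or 76.6% hypermethylated, beside 78.1% over all regions annotated to a gene. In the CG context 21 of 25 regions were hypermethylated (84.0%, beside 87.7% over all genes), in the CHG context 7 of 10 (70.0%, beside 69.3%) and in the CHH context 8 of 12 (66.7%, beside 77.5%). In the CG context, 14 of 25 regions (56.0%) were higher in CUMS by at least 10 percentage points, beside 58.7% over all genes. The median difference was 13.4 points in hypermethylated CG regions, beside 13.1 over all genes. In hypomethylated CG regions it was 19.0 points, beside 19.1. The shares of the vascular genes thus lay near those of genes in general, and the direction as such is not a property of this set. By gene, 17 carried hypermethylated regions only, 4 (Abcg2, Angpt2, Notch2 and Tek) carried hypomethylated regions only, and 5 (Insr, Lrp5, Plvap, Tie1 and Tspan12) carried both.

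**Figure D1:**
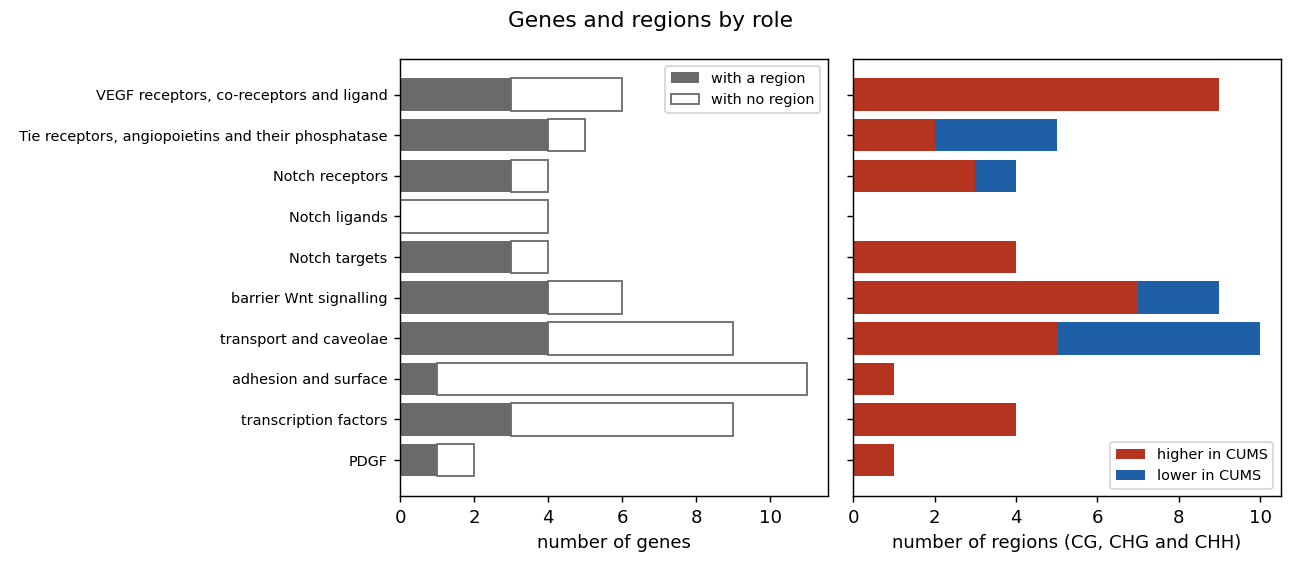
Number of genes with and without a listed region (left) and number of regions higher or lower in CUMS (right) for the 10 role groups, counted over the CG, CHG and CHH contexts. All 9 regions of the VEGF group and all 4 regions of the Notch targets were higher in CUMS, the 10 regions of the transport genes divided into 5 and 5, and the Notch ligands had none. Over all regions annotated to a gene, 78.1% were higher in CUMS.

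Of the 60 genes, 26 (43.3%) carried a region, beside 5999 of 20978 named protein-coding genes of RefSeq matched by symbol (28.6%). The genes were chosen with results of these data known, so this share is no result about them. Hypermethylated regions outnumbered hypomethylated ones in 7 of 10 groups. No region was annotated to the 4 Notch ligands (Dll1, Dll4, Jag1 and Jag2). Of 11 genes placed in the adhesion and surface group, Vwf alone carried a region. These groups are small, and differences between groups in the number of genes with a region were not tested. The genes of the adhesion and surface group without one were Vcam1, Icam1, Sele, Selp, Emcn, Lyve1, Eng, Nos3, Robo4 and Ramp2. Nos3, which encodes an enzyme, was counted in this group. The remaining genes without a region were Kdr, Flt1, Nrp2, Angpt1, Notch1, Hey2, Lef1, Reck, Mfsd2a, Abcb1a, Tfrc, Cav1, Cav2, Erg, Fli1, Ets2, Tal1, Lmo2, Nr2f2 and Pdgfrb. Absence from the list does not show an equal level in both groups, because regions below the authors' limits are not listed. In addition, the annotated list was limited to 10000 of 145823 CHH regions. CHH regions called by the authors may therefore lie in the genes given here as without a region, and these genes were not searched for them.

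In CpG islands the CG regions were almost uniform. Of 18 CG regions in an island, 17 were hypermethylated (94.4%, beside 97.8% over the island CG regions of all genes). These 17 regions had a level of 3.94% to 10.2% in Ctrl and of 10.5% to 36.8% in CUMS, with medians of 5.88% and 19.3%. The level in CUMS was 2.21 to 6.05 times that in Ctrl, with a median of 2.81, and the corresponding median over the 2737 hypermethylated island regions of all genes was 2.75. The regions lay in 13 islands of 293 to 2778 bp, of which 12 held hypermethylated CG regions only and 3 held more than 1 region. The part of an island that was covered by regions ranged from 8.68% (Pdgfb) to 89.4% (Notch3), with a median of 25.2%.

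**Figure D2:**
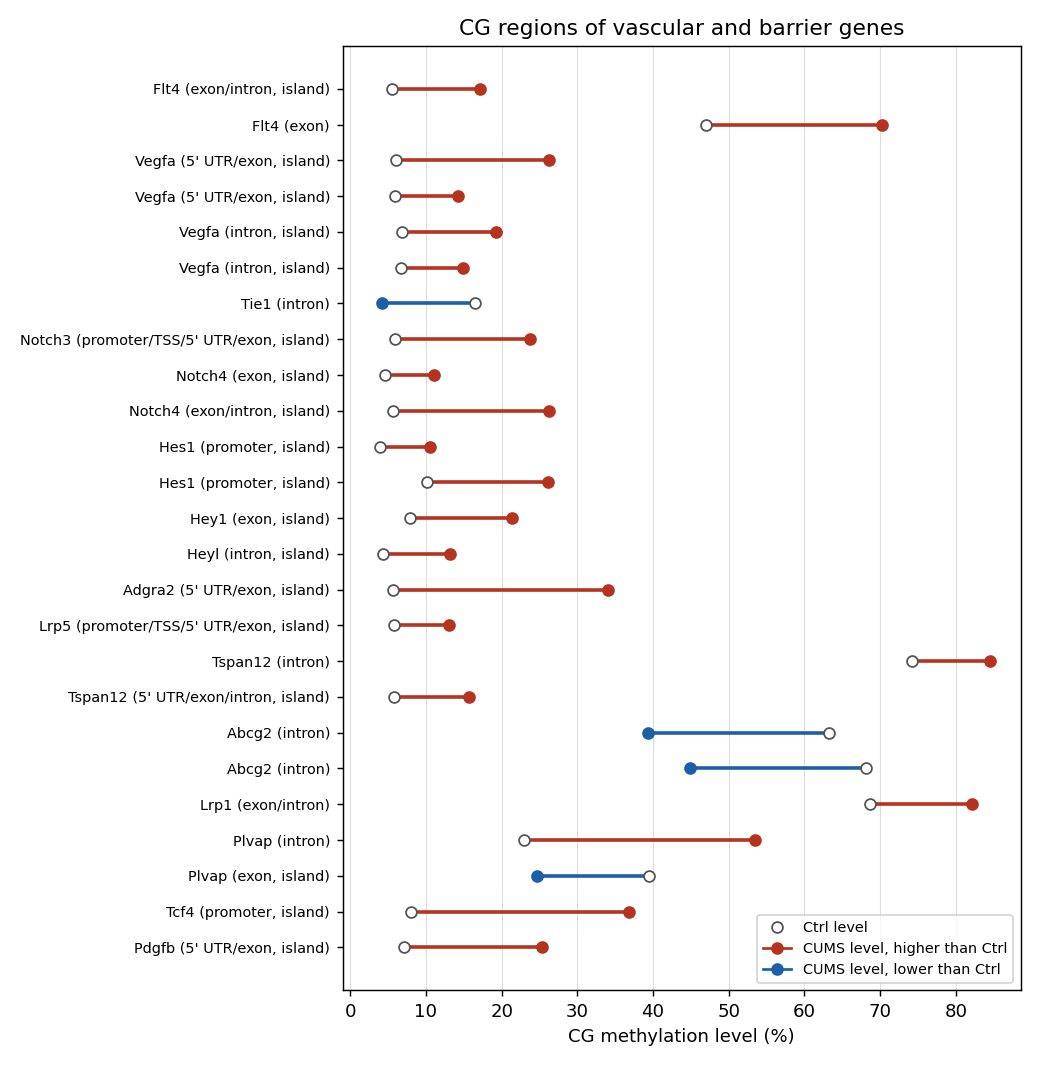
CG methylation level (%) of the 25 CG regions of vascular and barrier genes, with the Ctrl level as an open circle and the CUMS level as a filled circle, labelled with the gene, its annotated features and whether the region lies in a CpG island. The 17 hypermethylated island regions start between 3.94% and 10.2% in Ctrl, whereas the 4 hypomethylated regions, in Tie1, Abcg2 and Plvap, start between 16.4% and 68.1%.

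The VEGF system was examined first. Its 9 regions, in Vegfa, Flt4 and Nrp1, were all hypermethylated, beside 78.1% of the regions of all genes. Most of them were CG regions in islands, of which 97.8% were hypermethylated over all genes, and 4 shared the island of Vegfa. Vegfa (ENSRNOG00000019598), which encodes the growth factor itself, carried 4 CG regions within a single CpG island of 1985 bp on chromosome 9, between 14955845 and 14957033 of mRatBN7.2. In the 5′ UTR and exon, the level at 14955845 to 14955969 was 6.06% in Ctrl and 26.2% in CUMS, and at 14956031 to 14956235 it was 5.88% and 14.2%. In the intron, the level at 14956799 to 14956854 was 6.87% in Ctrl and 19.3% in CUMS, and at 14956977 to 14957033 it was 6.73% and 14.9%. The 4 regions thus began from nearly the same level in Ctrl and differed in how far CUMS lay above it, from 8.15 to 20.1 percentage points. They share an island and the same cells and are not independent observations.

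Flt4 (ENSRNOG00000002511) encodes VEGF receptor 3, which is prominent in lymphatic endothelium and in sprouting vessels. Its island region on chromosome 10, at 33913737 to 33913890 across an exon and intron, had 5.46% in Ctrl and 17.2% in CUMS. A second CG region, in an exon and an island shore (33938388 to 33938460), was already at 47.1% in Ctrl and reached 70.2% in CUMS. The difference of 23.2 points was larger than in 85.4% of hypermethylated CG regions of genes. A pair of intronic CHH regions of Flt4 lay in repeats, with 0.650% in Ctrl and 4.74% in CUMS in a LINE element, and 0.0340% and 4.54% in a SINE element. Nrp1 (ENSRNOG00000010744), a co-receptor for VEGF and semaphorins, carried an intronic CHH region of 514 bp (chromosome 19, 56418747 to 56419260) with 1.43% in Ctrl and 11.0% in CUMS.

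**Figure D3:**
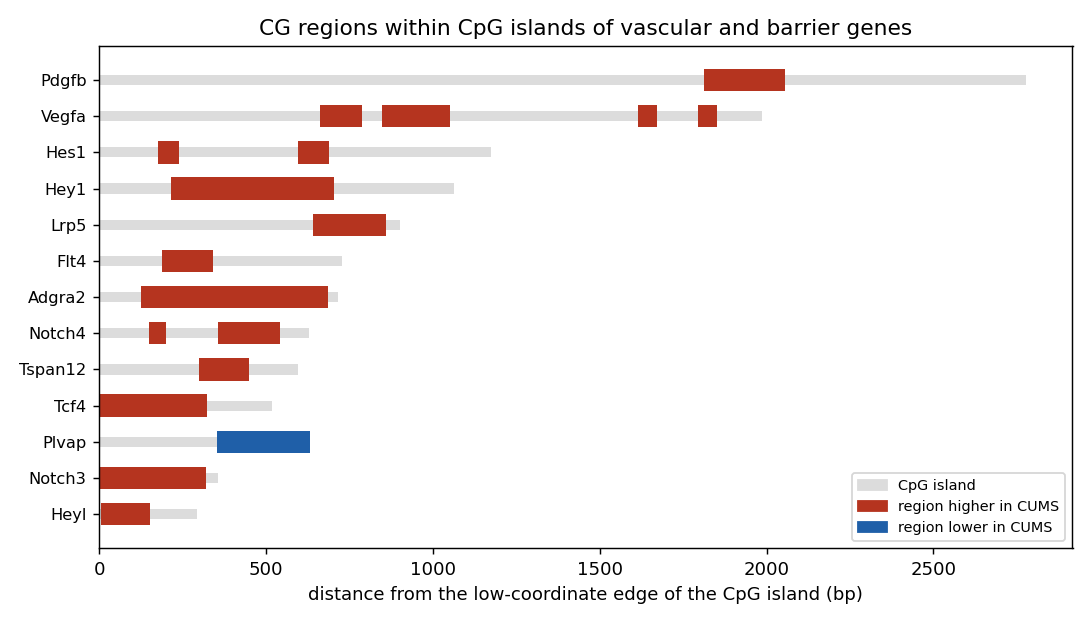
Position of the CG regions (coloured bars) within the 13 CpG islands (grey bars) of vascular and barrier genes, as distance in bp from the edge of the island with the lower coordinate, whatever the strand of the gene. Vegfa, Notch4 and Hes1 hold more than 1 region in an island, Adgra2 and Notch3 regions cover 78.4% and 89.4% of theirs, and the hypomethylated Plvap region reaches beyond its island.

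In the Tie and angiopoietin system 3 of 5 regions were hypomethylated, whereas 78.1% of the regions of all genes were hypermethylated. All but 1 of the 5 were CHH regions, of which 77.5% were hypermethylated over all genes. The VEGF regions were mostly CG regions, so these groups also differ in context. Tek (ENSRNOG00000008587) encodes Tie2, the receptor of the angiopoietins. It carried an intronic CHH region on chromosome 5 (109679837 to 109680103, 143 cytosines) with 9.21% in Ctrl and 0.0702% in CUMS, so that methylation in this stretch was seen almost entirely in Ctrl. Angpt2 (ENSRNOG00000016696), the ligand that mostly opposes Tie2 activation, carried an intronic CHH region in a repeat (chromosome 16, 71111283 to 71111544) with 6.57% in Ctrl and 0.312% in CUMS. This region was also annotated to Mcph1 and cannot be assigned to Angpt2 alone. Tie1 (ENSRNOG00000020173), a receptor that modulates Tie2, carried regions of both directions. Its CG region, in an intron and an island shore (chromosome 5, 132016609 to 132016681), had 16.4% in Ctrl and 4.22% in CUMS over 9 cytosines, and an intronic CHH region at 132006808 to 132007045 had 1.34% and 7.41%. In Ptprb (ENSRNOG00000055293), a phosphatase that acts on Tie2, the level of an intronic CHH region in a repeat was 0.246% in Ctrl and 3.50% in CUMS, and the difference of 3.26 points was the smallest of the 47 regions. The counts of these genes are too small to set their direction apart from that of the other genes, and no test was made.

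Among the Notch genes, the CG regions of receptors and targets were all hypermethylated and lay in CpG islands, where 97.8% of CG regions of all genes had this direction, whereas the ligands had no region. Notch3 (ENSRNOG00000004346), whose product is best known from vascular smooth muscle cells and pericytes, carried a region on chromosome 7 (11183862 to 11184180) that was annotated to the promoter, TSS, 5′ UTR and exon. Its 73 cytosines had a level of 5.97% in Ctrl and 23.8% in CUMS, a difference of 17.8 points. Notch4 (ENSRNOG00000000442), the receptor most restricted to endothelium, carried a pair of regions in an exonic island on chromosome 20. The level was 4.54% in Ctrl and 11.0% in CUMS at 4161103 to 4161155, and 5.66% and 26.2% at 4161312 to 4161496. Notch2 (ENSRNOG00000018835) differed from these, with a single intronic CHG region (chromosome 2, 185722734 to 185722810) at 8.33% in Ctrl and 0.0362% in CUMS. It covered 7 cytosines, and its difference was larger than in 94.7% of hypomethylated CHG regions of genes.

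The Notch targets encode transcriptional repressors of the Hes and Hey family. Hes1 (ENSRNOG00000001720) carried 2 promoter regions in a single island on chromosome 11. At 70709250 to 70709312 the level was 3.94% in Ctrl and 10.5% in CUMS, and at 70709671 to 70709762 it was 10.2% and 26.2%. Both were also annotated to the gene ENSRNOG00000068158. The upstream sequence of Hes1 shown above is the member of the 4 printed sequences that contains GTGGGAA. Hey1 (ENSRNOG00000062882) carried a long exonic island region on chromosome 2 (93096128 to 93096616, 148 cytosines) with 7.91% in Ctrl and 21.3% in CUMS, and Heyl (ENSRNOG00000015318) an intronic island region on chromosome 5 (135514544 to 135514689) with 4.26% and 13.2%.

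Next, the genes of barrier Wnt signalling were examined. Adgra2 (ENSRNOG00000012991), which encodes GPR124, a receptor that together with Reck relays Wnt7 signals in brain endothelium, carried a CG region of 561 bp with 145 cytosines in its 5′ UTR and exon (chromosome 16, 64970873 to 64971433). The level was 5.63% in Ctrl and 34.1% in CUMS, and the difference of 28.4 points was the third largest of the 47 regions. The region covered 78.4% of its island. Lrp5 (ENSRNOG00000015911) and Lrp6 (ENSRNOG00000006338) encode the co-receptors of Wnt ligands. At the promoter, TSS and 5′ UTR of Lrp5 on chromosome 1 (200917512 to 200917727), the level was 5.78% in Ctrl and 13.1% in CUMS. Within introns of Lrp5, a CHG region had 4.05% in Ctrl and 0.0160% in CUMS, and another in a repeat had 0.0142% and 5.75%. An intronic CHG region of Lrp6 had 0.0132% in Ctrl and 3.49% in CUMS.

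Tspan12 (ENSRNOG00000059016), a tetraspanin that enhances norrin signalling through Frizzled-4, showed opposite directions in overlapping regions. Across its 5′ UTR, exon and intron on chromosome 4, a CG region in an island (50388776 to 50388925) had 5.78% in Ctrl and 15.7% in CUMS. A CHG region at 50388864 to 50388934, which shares 62 bp with it, had 3.91% in Ctrl and 0.0624% in CUMS. Over all genes, 94 pairs of a CG and a CHG region overlapped, and the directions were opposite in 6 of them, including this pair. Tspan12 also carried an intronic CG region in a LINE element, at 74.1% in Ctrl and 84.5% in CUMS over 5 cytosines, and an intronic CHH region at 0.219% and 4.31%.

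The transport genes held 5 hypermethylated and 5 hypomethylated regions, whereas 78.1% of the regions of all genes were hypermethylated. They held 3 of the 4 hypomethylated CG regions, all in Abcg2 and Plvap, and over all genes 87.7% of CG regions were hypermethylated. These counts are too small to set the transport genes apart, and no test was made. Abcg2 (ENSRNOG00000007041) encodes an efflux pump of the luminal membrane of brain endothelium. Both of its regions were intronic CG regions away from islands on chromosome 4, and both were lower in CUMS. The level was 63.3% in Ctrl and 39.4% in CUMS at 87750166 to 87750371, where 5 cytosines were covered in an LTR element, and 68.1% and 44.9% at 87761937 to 87762177, where 19 were covered. The differences, CUMS minus Ctrl, were -23.9 and -23.3 points at these places, which lie within 12012 bp.

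Plvap (ENSRNOG00000017676) encodes the protein of the diaphragms of fenestrae and caveolae, which is scarce in the mature BBB endothelium. It held the largest difference of the 47 regions, and its CG regions on chromosome 16 had opposite directions within 7292 bp. An intronic region at 18186209 to 18186278 (7 cytosines) had 22.9% in Ctrl and 53.4% in CUMS, a difference of 30.5 points that exceeded those of 96.0% of hypermethylated CG regions of genes. An exonic region at 18193220 to 18193500 (37 cytosines), which overlaps the edge of an island, had 39.4% in Ctrl and 24.7% in CUMS. It was the one hypomethylated island CG region of the set, and its difference exceeded those of 26.6% of hypomethylated CG regions of genes.

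**Figure D4:**
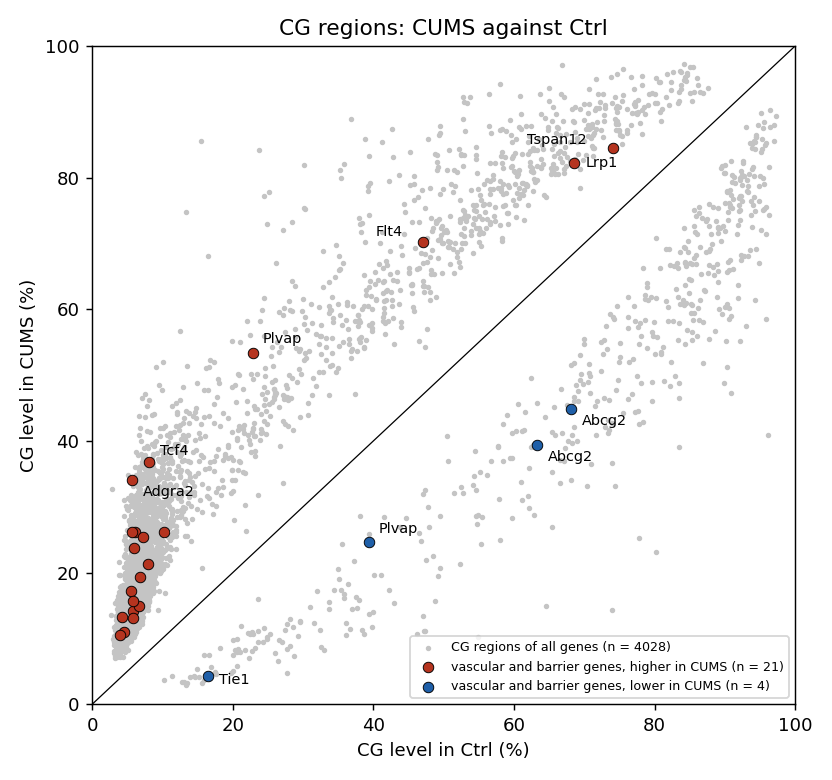
CG level in CUMS (y axis, %) against Ctrl (x axis, %) for the 4028 CG regions annotated to genes (grey) and the 25 of vascular and barrier genes (red, higher in CUMS; blue, lower), with the line of equal levels, along which no region is listed. Most red points lie in the dense cloud at or under 10.2% in Ctrl, while Plvap, Flt4, Lrp1, Tspan12, Abcg2 and Tie1 lie outside it.

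Insr (ENSRNOG00000029986), the insulin receptor, carried 2 intronic CHH regions on chromosome 12 that were lower in CUMS. The level was 9.10% in Ctrl and 0.177% in CUMS at 1237562 to 1237888, in an LTR element, and 10.4% and 0.175% at 1267334 to 1267559, in an island shore. The latter difference of 10.2 points exceeded those of 89.6% of hypomethylated CHH regions of genes. An intronic CHG region of Insr had the other direction, with 0.0206% in Ctrl and 4.78% in CUMS. Lrp1 (ENSRNOG00000025053), an endocytic receptor that clears amyloid-β at the vessel wall, carried 3 hypermethylated regions on chromosome 7. Its CG region across an exon and intron (63399582 to 63399641) had 68.6% in Ctrl and 82.2% in CUMS, and its intronic CHG regions had 0.283% and 5.41%, and 0.294% and 6.52%.

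The transcription factor genes carried 4 regions, all hypermethylated, a number too small to be set against the 78.1% of all genes. Tcf4 (ENSRNOG00000012405) encodes a basic helix-loop-helix factor that binds E-boxes and is expressed in many cell types. Its CG region, in the promoter and in an island on chromosome 18 (62943297 to 62943619, 26 cytosines), had 8.08% in Ctrl and 36.8% in CUMS. This difference of 28.7 points was second to that of Plvap. Ets1 (ENSRNOG00000008941), a factor of vascular development, carried a CHH region in its promoter (chromosome 8, 31045452 to 31045709) with 0.368% in Ctrl and 6.58% in CUMS, and an intronic CHG region with 0.0140% and 4.47%. Mef2c (ENSRNOG00000033134), a MADS-box factor of muscle, neurons and endothelium, carried a CHG region across an exon and intron with 0.249% in Ctrl and 4.00% in CUMS.

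A single region each was annotated to Pdgfb and Vwf. Pdgfb (ENSRNOG00000017197) encodes the growth factor by which endothelium recruits pericytes. In its 5′ UTR and exon on chromosome 7 (111557533 to 111557773, 53 cytosines), the level was 7.16% in Ctrl and 25.4% in CUMS, and this region took up 8.68% of the longest of the 13 islands. Pdgfrb, the receptor on pericytes, had no region. Vwf (ENSRNOG00000019689), which encodes von Willebrand factor, carried an intronic CHH region in SINE elements (chromosome 4, 158450573 to 158450961) with 0.295% in Ctrl and 5.04% in CUMS.

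Finally, the CHG and CHH regions were compared with the CG regions. They lay mostly in introns, with 8 of 10 CHG and 11 of 12 CHH regions annotated to introns only, beside 75.2% and 85.8% over all genes. Repeats were annotated in 3 of 10 CHG regions (30.0%, beside 38.1% over all genes) and in 7 of 12 CHH regions (58.3%, beside 47.3%). In these regions the lower group was always near 0, at 0.0132% to 1.43%, and the higher group at 3.49% to 11.0%. The median difference of the 8 hypermethylated CHH regions was 4.63 points, compared with 7.55 points over all genes, and that of the 4 hypomethylated ones was 9.03 points, compared with 5.57 points. Incomplete deamination of a few DNA molecules also gives CHG and CHH levels above 0, and its part in these values was not tested.

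**Figure D5:**
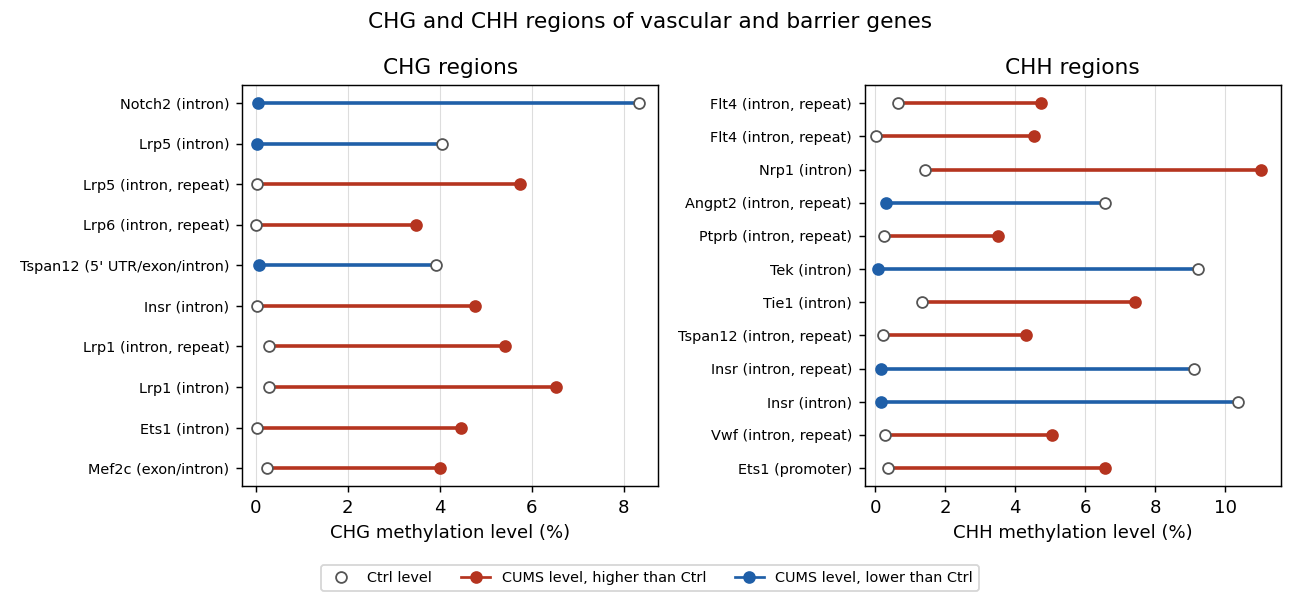
Methylation level (%) of the 10 CHG regions (left) and 12 CHH regions (right) of vascular and barrier genes, with the Ctrl level as an open circle and the CUMS level as a filled circle. In each region the lower group lies at or below 1.43%, and the 7 hypomethylated regions, in Notch2, Lrp5, Tspan12, Angpt2, Tek and Insr, have their higher level in Ctrl.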

How the data were processed

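DNA of sorted hippocampal endothelial cells (3 CUMS and 3 Ctrl samples, grouped by title) was treated with TET2 and APOBEC3A and sequenced. Per the labels and the study's methods, the authors used FastQC (0.11.3), fastp (0.20.0), Bismark (0.16.3) with Bowtie2, the mRatBN7.2 assembly, and DSS to call regions. The deposited tables give the methylation level of a region as a fraction (0 to 1), and each group has one such value, which was turned into percent here. Cytosines that escape deamination are read as methylated. The methods state a minimum difference of 10 percentage points for regions, whereas the deposited reduced list goes down to 2.00 points, and all its regions were kept. Whether levels were smoothed is not given in the sources used here. The deposited columns of other units hold the length of a region and its number of cytosines. Columns with the authors' own differences and region scores were not used, so the planned naming of genes by that score was left out, and differences were computed from the levels. The annotation covered 24862 of 24869 regions of the reduced list, in which the CHH context is limited to 10000 of 145823 regions.

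Regions were selected by the gene name in the annotation, and each counted once. Values are given for all 47 regions. Medians and shares were set beside those of the 12262 regions annotated to a gene. No values per sample were used here, and the planned permutation test was replaced by description. Promoter sequences are from RefSeq (GRCr8), and the 4 shown were chosen after the values were seen. The genes and lists were chosen with earlier results of these data known. Counting was checked on a small made table. Python 3.11.15, pandas 2.3.3 and matplotlib 3.10.9 were used. Alternatives were limits of 10 and 20 percentage points, 10 cytosines or 100 bp, single contexts, joining of regions within 1 kb, and annotation classes.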

Additional observations from a re-analysis of the deposited data

Results flagged for a closer look

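The full list of regions, which the annotation did not cover for most CHH regions, held further CHH regions in some of these genes. Within the stretches between the first and last annotated region of the 12 genes with at least 2 regions, 34 additional CHH regions were listed, in 8 of the genes. Of these, 20 were hypermethylated and 14 hypomethylated (58.8% hypermethylated, beside 63.5% over all additional CHH regions). Median levels were 0.220% in Ctrl and 2.99% in CUMS for the former, and 2.81% and 0.174% for the latter. The part of incomplete deamination in these low levels was not tested. Lrp5 held 10 of them (5 and 5) over a stretch of 92811 bp, and Ets1 held 9 (6 hypermethylated and 3 hypomethylated) over 99851 bp. Insr held 4, of which 3 were hypomethylated, with differences of up to 7.97 percentage points. The stretches of Vegfa, Hes1, Notch4 and Plvap held none, but were only 1189, 513, 394 and 7292 bp long. The stretches thus differed widely in length, and these counts do not compare the genes.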

How the results depend on the processing

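No paired analysis was possible because each group has one combined level, and for that reason no replicate could be left out. In 12 of 12 alternatives more regions were hypermethylated than hypomethylated (66.7% to 89.5% hypermethylated). Over all regions annotated to a gene the share was 78.1%, and by single context it was 69.3% to 87.7%. The alternatives were drawn from the same 47 regions, so this count is not a property of the set. Of 39 comparisons with an alternative, 21 stayed within 1.5 times the count as listed (36 hypermethylated, 11 hypomethylated, 26 genes, 7 role groups), and 18 moved, all of them under settings that keep part of the regions by construction. Hypermethylated and hypomethylated regions numbered 14 and 5 in 15 genes at a minimum of 10 percentage points, and 6 and 2 in 7 genes at 20 points. They numbered 21 and 4 in 16 genes for CG regions, and 7 and 3 in 8 genes for CHG regions. The numbers were 8 and 4 in 10 genes for CHH regions, and 17 and 2 in 13 genes for CpG islands. The island counts cover all contexts and so include the hypomethylated CHG region of Tspan12. The alternatives of CpG islands and of regions in no repeat were chosen after the data were seen. The read depth of a region is not in the tables used here, so the counting error of its level is unknown. Levels over 5 to 9 cytosines were among those of Abcg2, Tspan12, Plvap, Lrp1, Tie1, Notch2 and Insr.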

Other observations

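Other genes of the same pathways, from lists chosen with earlier results of these data known, were counted as well. Of 25 other Notch pathway genes, 11 carried 27 regions, of which 19 were hypermethylated and 8 hypomethylated (70.4% hypermethylated, beside 78.1% over all regions of genes). The share of genes with a region was 44.0%, beside 28.6% of all named protein-coding genes, and since the lists were chosen with results known this is a description. Mfng, which encodes a glycosyltransferase that modifies Notch receptors, carried an intronic CHH region with 0.100% in Ctrl and 35.2% in CUMS. Maml2, a co-activator of Notch, carried 6 regions, all hypermethylated, among them a CHH region in its promoter with 7.02% in Ctrl and 31.5% in CUMS. Maml3, a relative of Maml2, carried 3 hypomethylated and 2 hypermethylated regions.

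Of 12 other VEGF, angiopoietin and PDGF genes, 8 carried 13 regions, of which 11 were hypermethylated (84.6%, beside 78.1%). The CG regions at the starts of Vegfb (7.11% in Ctrl and 16.7% in CUMS) and Pdgfc (6.34% and 25.8%) were hypermethylated, and an intronic CG region of Pdgfd in a repeat was hypomethylated (91.1% and 66.2%). Of 27 other barrier and endothelial genes, 10 carried 18 regions, of which 15 were hypermethylated (83.3%, beside 78.1%), and all 9 CG regions were hypermethylated, beside 87.7% of the CG regions of all genes. These shares lie near those of genes in general. In Slc2a1, which encodes the glucose transporter of the BBB, an intronic CG region had 26.6% in Ctrl and 59.5% in CUMS. At the start of Tcf7l1, a Wnt effector, the CG level was 5.97% in Ctrl and 30.8% in CUMS, and at the start of Ctnnb1, which encodes β-catenin, it was 5.07% and 16.1%. Foxf2, a transcription factor gene of brain vessels, carried 3 island regions with 5.66% to 5.82% in Ctrl and 14.5% to 22.9% in CUMS.

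Regions were also counted for marker genes of cell types, since the tables used here hold no expression values. Over all named protein-coding genes 28.6% carried a region, and 78.1% of the regions annotated to a gene were hypermethylated. The marker lists are too short to be set apart from these shares, and differences between cell types were not tested. Of 8 endothelial markers 4 carried 5 regions, of which 3 were hypermethylated and 2 hypomethylated. The hypermethylated ones included a CHG region of Pecam1, which encodes the CD31 used for sorting, at 0.253% in Ctrl and 5.95% in CUMS. The hypomethylated ones were the CHH region of Tek (9.21% and 0.0702%) and the CG region of Tie1 (16.4% and 4.22%). Of 5 pericyte and smooth muscle markers Cspg4 alone carried a region, and a wider list of 6 mural cell genes, which also holds Cspg4, had 4 regions in 3 genes. Of 5 microglia and leukocyte markers 2 carried 3 regions, all hypermethylated, in Ptprc (CD45) and Csf1r. Of 4 astrocyte markers 2 carried 2 regions, both hypermethylated, of 4 neuron markers 2 carried 6, all hypermethylated, and of 4 oligodendrocyte markers 2 carried 2, both hypomethylated. In Mog, a gene of myelin, a promoter CG region in a repeat (12 cytosines) had 81.4% in Ctrl and 49.1% in CUMS. Fewer or more cells of a type in the sort and a change of methylation within cells cannot be told apart in these levels.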
